A study of Mus musculus with 4 samples.

Results

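The stress and simple-epithelium keratins are 8 genes, taken by their symbols from the 56980 genes of the count matrices. Krt6a, Krt6b, Krt16 and Krt17 are the 4 stress keratins, and Krt7, Krt8, Krt18 and Krt19 are the 4 simple-epithelium keratins. Their transcripts were counted in single cells of mouse embryonic skin to ask how they change when the enzymes that write H3K9me3, a histone mark of silent chromatin, are removed from the epidermis. The study sorted dorsal skin cells positive for Epcam, an epithelial surface protein, and for α6 integrin, which marks cells on the basement membrane, and made 1 single-cell library from each of 4 embryos. The age is E16.5 in the labels and E15.5 where the study lists its litters. The 2 Ctrl embryos carried Suv39h1 f/f, Suv39h2-/- and Setdb1 f/f without K14CreERT2. The 2 TKO (triple knockout) embryos carried these alleles with K14CreERT2, a Cre recombinase that tamoxifen switches on and that a promoter of basal keratinocytes drives. Tamoxifen was given to the pregnant females of both groups, both groups carried the Suv39h2-/- allele, and the study describes the TKO epidermis as mosaic.

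Keratins are the intermediate filament proteins of epithelia, and a filament needs a type I and a type II keratin together. Basal keratinocytes build theirs from Krt5 and Krt14 and differentiating ones from Krt1 and Krt10. Krt6a and Krt6b (type II) pair with Krt16 and Krt17 (type I) in hair follicles and other appendages, and wounding or stress induces them in the epidermis between follicles. Krt7 and Krt8 (type II) and Krt18 and Krt19 (type I) belong to single-layered epithelia; in skin, Krt8 and Krt18 mark Merkel cells, which sense touch, and the embryonic surface layers.

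The type II members and Krt18 lie together on chromosome 15 and the other type I members on chromosome 11 (GENCODE vM39, build GRCm39). Krt6b (ENSMUSG00000023041, 101584458 to 101588722, minus strand) and Krt6a (ENSMUSG00000058354, 101598345 to 101602742, minus strand) are neighbours with 9.62 kb between them. Krt7 (ENSMUSG00000023039) spans 101308924 to 101328194 on the plus strand. Krt8 (ENSMUSG00000049382, 101905133 to 101912917, minus strand) and Krt18 (ENSMUSG00000023043, 101936615 to 101940462, plus strand) point away from each other across 23.7 kb. On chromosome 11, Krt16 (ENSMUSG00000053797, 100136917 to 100139795) and Krt17 (ENSMUSG00000035557, 100147040 to 100151974) are separated by 7.24 kb, and Krt19 (ENSMUSG00000020911) lies at 100031636 to 100039491, all on the minus strand. No member overlaps a gene on its own strand, while predicted genes overlap Krt6a, Krt6b, Krt7, Krt8 and Krt19 on the opposite strand.

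Krt6a and Krt6b are near-copies, so how far their reads can be told apart bears on every value of theirs. Their coding sequences were 97.6% identical over 1662 and 1665 bases, and their transcript ends after the stop codon, where reads of a 3′ library fall, were 70.9% identical over 557 and 506 bases. By comparison, Krt16 and Krt17 shared 70.4% of coding bases and 41.6% of the end. The last 90 coding bases of both genes, stop codon included, are shown from GENCODE vM39 with capitals for bases that differ from the partner or have no partner in the alignment.
Krt6a: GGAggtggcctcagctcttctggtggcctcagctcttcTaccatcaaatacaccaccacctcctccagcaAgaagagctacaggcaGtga
Krt6b: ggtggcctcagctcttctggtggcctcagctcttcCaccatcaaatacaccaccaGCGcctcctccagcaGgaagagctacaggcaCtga
Each held 6 capitals in this stretch. Krt6a and Krt6b counts are therefore given with the caution that reads from the coding end could be assigned to either gene or dropped.

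Promoters are shown for Krt7, which rose, Krt8, which fell, and Krt18, the partner of Krt8. These are the 3 members with an entry in the promoter table used here. The sequences are RefSeq's (build GRCm38.p6), from 250 bases before to 50 bases after the start, read along the gene, with capitals for TATAAA (the core of the TATA box), for TGANTCA, a loose form of the AP-1 motif, and for the GC box GGGCGG, on either strand.
Krt7: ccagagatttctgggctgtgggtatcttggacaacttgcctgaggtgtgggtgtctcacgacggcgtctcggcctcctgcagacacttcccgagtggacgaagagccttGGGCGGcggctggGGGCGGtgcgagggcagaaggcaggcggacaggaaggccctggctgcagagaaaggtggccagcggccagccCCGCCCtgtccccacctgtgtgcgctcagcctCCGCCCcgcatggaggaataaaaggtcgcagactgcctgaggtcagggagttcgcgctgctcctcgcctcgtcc
Krt8: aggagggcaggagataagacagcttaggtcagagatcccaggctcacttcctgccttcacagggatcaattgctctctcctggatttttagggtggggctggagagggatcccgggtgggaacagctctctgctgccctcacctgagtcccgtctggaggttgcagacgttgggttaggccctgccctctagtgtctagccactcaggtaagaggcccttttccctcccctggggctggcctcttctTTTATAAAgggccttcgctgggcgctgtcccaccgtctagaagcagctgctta
Krt18: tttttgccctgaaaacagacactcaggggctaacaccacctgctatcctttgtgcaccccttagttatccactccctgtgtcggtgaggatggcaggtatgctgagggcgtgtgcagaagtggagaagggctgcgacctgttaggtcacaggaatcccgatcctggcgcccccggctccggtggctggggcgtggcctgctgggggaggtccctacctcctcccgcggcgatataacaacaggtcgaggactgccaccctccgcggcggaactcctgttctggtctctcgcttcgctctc
The Krt7 window (chr15:101412153-101412452, plus strand) held 4 GGGCGG matches, a motif found in 35.9% of 27025 RefSeq promoters of this length. The Krt8 window (chr15:102004293-102004592, minus strand) held 2 overlapping TATAAA matches, 1 on each strand, against 14.2% of promoters with any. The Krt18 window (chr15:102027966-102028265, plus strand) held none of the 3 motifs, and TGANTCA, present in 7.93% of promoters, was in none of the 3 windows.

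The 4 libraries held 70749496 to 89655247 UMIs, each UMI being 1 captured transcript molecule, and any 2 of them shared 2 to 12 barcodes. After filtering, 2845 and 2989 Ctrl and 1567 and 1791 TKO keratinocytes remained, with a median of 17333 and more UMIs in Ctrl against 28052 and more in TKO. They were clustered without the 8 members and without genes that differed between the genotypes. The study described 2 clusters found only in TKO, an aberrant basal and an aberrant differentiating one. A first clustering left out the members only, and 1 of its basal clusters held 26 and 26 Ctrl but 257 and 204 TKO cells. The classes used here take in such cells, so a class can hold unlike cells in the 2 genotypes. Although the labels call the sorted cells basal, 239 to 826 keratinocytes a library were differentiating-like (suprabasal, with Krt1 and Krt10), beside 824 to 1513 basal-like, 312 to 697 hair follicle-like and 10 to 32 Merkel-like cells, and 91 to 177 led by Pthlh, Penk and Krt79 stayed unnamed. Immune-like, fibroblast-like and other cells outside the keratinocytes numbered 207 and 245 in Ctrl but 528 and 592 in TKO, with 64 and 97 against 249 and 295 immune-like cells. Levels are CPM, the UMIs of a gene divided by all UMIs of the class in that library and scaled to a common total; a 3′ count does not scale with transcript length. Setdb1, a targeted gene, was at 67.6 and 58.3 CPM in Ctrl and 39.4 and 42.4 in TKO keratinocytes (log2 change −0.64, SE 0.13, adjusted p = 0.0448), and Suv39h1 at 24.4 and 25.4 against 24.8 and 20 (adjusted p = 0.468). Suv39h2 transcripts were counted in every library, at 14.0 and 17.1 CPM in Ctrl and 22.5 and 16.1 in TKO (adjusted p = 0.391). Counts from the 3′ end cannot tell a transcript with a deleted exon from one without the deletion.

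Across all keratinocytes, 3 of the 8 members rose in TKO and 1 fell. Krt6a, Krt6b and Krt7 were higher, where 4.38% of 19930 tested genes were called as higher, and Krt8 was lower, where 2.59% were called as lower (edgeR on the summed counts of each library, adjusted p under 0.05; 6.96% in either direction). The median log2 change of the 8 members was 2.31, against −0.02 for all tested genes. Krt16, Krt17, Krt18 and Krt19 did not pass the test. The classes differed: Krt6a and Krt6b rose in differentiating-like cells, Krt7 rose in basal-like cells, the Merkel-like cluster held most Ctrl Krt8, and Krt16 fell in hair follicle-like cells. The count in differentiating-like cells depended on the test. There edgeR called 2 of 8 members, and 7 had an unadjusted p under 0.05, as had 2480 of the 14551 genes. DESeq2 called 7, all but Krt16, among 727 of these genes. In keratinocytes and basal-like cells DESeq2 called 4 of 8 and 2 of 7 members, beside 2644 of 19930 and 2518 of 17247 genes.

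**Figure D1:**
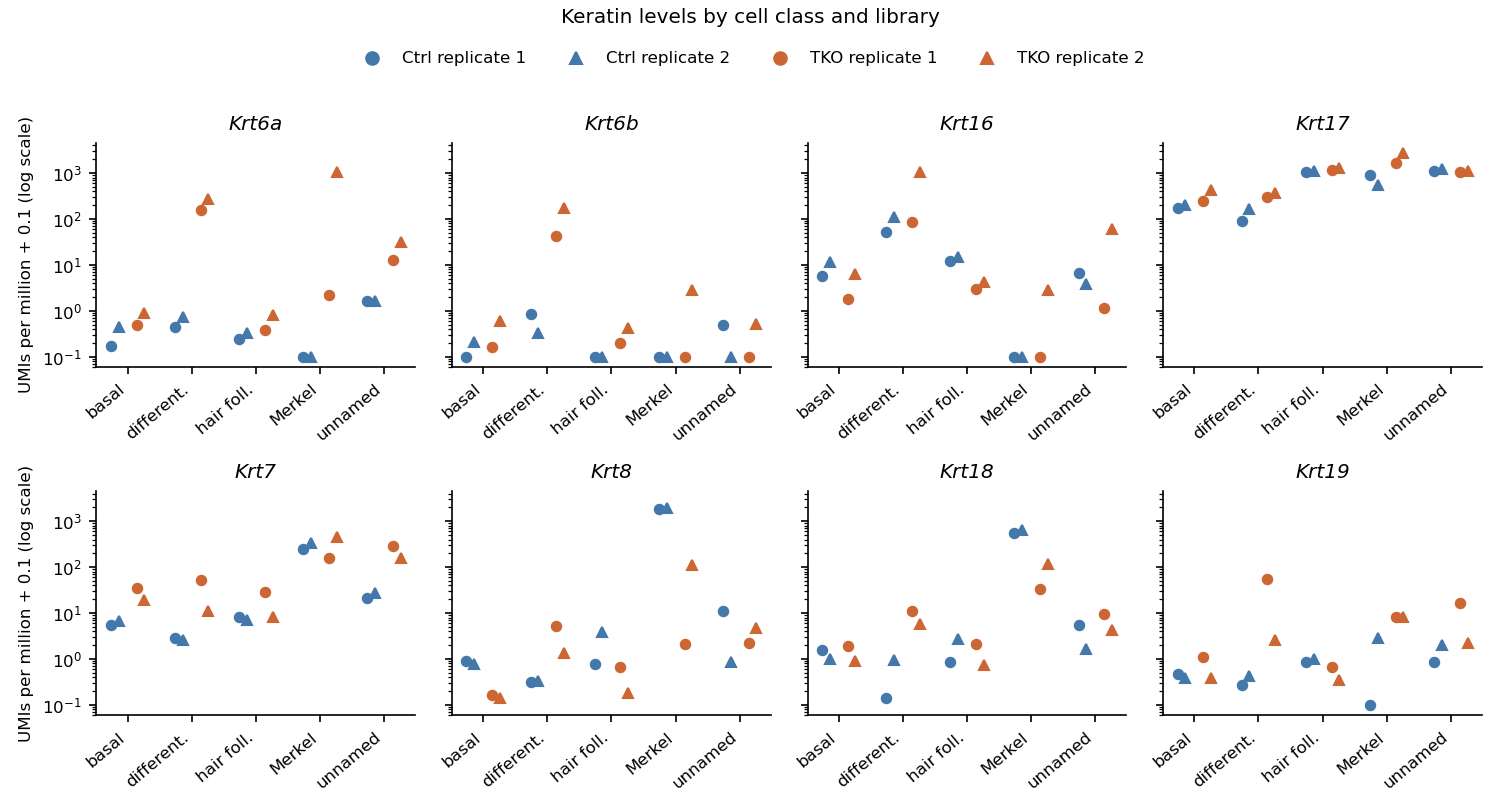
Level of each keratin (y axis, CPM plus 0.1, log scale) in basal-like, differentiating-like, hair follicle-like, Merkel-like and unnamed keratinocytes (x axis), 1 point a library; blue is Ctrl, orange TKO, circles replicate 1 and triangles replicate 2. Krt6a in differentiating-like cells stood at 154 and 277 in TKO against 0.353 and 0.633 in Ctrl, and Krt8 in the Merkel-like cluster at 1850.3 and 1905 in Ctrl against 2.07 and 111 in TKO.

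Krt6a, the main inducible type II keratin, showed the largest difference among the members. Its UMIs in differentiating-like cells were 8 in each Ctrl library and 1345 and 3996 in TKO replicates 1 and 2. As a level this was 0.353 and 0.633 CPM in Ctrl and 154 and 277 CPM in TKO, so the groups did not overlap. The log2 change was 8.78 (SE 0.51, adjusted p = 0.0120), and of the 14551 genes tested in this class 0.852% were called as higher and 0.330% as lower (1.18% in all). It was called under each of 15 alternatives, at changes between 3.86 and 9.85. The lowest came when cells were clustered on principal components not aligned between libraries. In basal-like cells Krt6a was at 0.0689 and 0.354 CPM in Ctrl and 0.400 and 0.814 in TKO (log2 change 1.5, SE 0.76, adjusted p = 0.250). It was called as higher there at Leiden resolution 0.5 (3.02, adjusted p = 0.0409) and with the members kept in the clustering (3.23, adjusted p = 0.0488), and the change was 5.47 with unaligned components (adjusted p = 0.0507). Hair follicle-like cells held 2, 3, 3 and 9 UMIs, too few for the fit. In the unnamed cluster it was at 1.54 and 1.52 CPM in Ctrl and 12.9 and 32.0 in TKO, a difference that was not tested.

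Few differentiating-like cells carried the Krt6a transcripts. With every cell thinned to 5000 UMIs, 0.121% (1 of 824 cells, 95% Clopper-Pearson interval 0.00307 to 0.674) and 0.351% (2 of 570, 0.0425 to 1.26) of Ctrl cells had a Krt6a UMI. In TKO the shares were 7.53% (18 of 239, 4.52 to 11.6) and 17.4% (74 of 426, 13.9 to 21.3). Immune-like cells, which should lack keratins, gave 0 of 64, 1 of 96, 0 of 248 and 0 of 289 cells at this depth, with medians of 13390.0 to 18484 UMIs a cell before thinning against 21194 to 35173 in differentiating-like cells. Without thinning, 0.363% and 1.21% of Ctrl and 14.2% and 26.5% of TKO differentiating-like cells had a UMI. With 2 libraries a group the exact permutation test of such shares cannot reach 0.05. In TKO replicate 1, 1 cell held 483 of the 1345 UMIs and its 2 richest cells held most of them, whereas in TKO replicate 2 it took 9 cells to reach a majority. Leaving out the richest cell of each library left the change at 9.15 (adjusted p = 0.0177).

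Krt6b, its near-copy, followed the same layer with fewer UMIs. Differentiating-like cells held 17 and 3 UMIs in Ctrl against 369 and 2501 in TKO (0.749, 0.237, 42.3 and 173 CPM), with no overlap. The log2 change of 7.53 (SE 1.01) had an adjusted p of 0.0454, close to the threshold. In keratinocytes together the change was 7.13 (SE 1.18, adjusted p = 0.0299), lost without the richest cell of each library (8.10, adjusted p = 0.0589), without the expression filter (7.11, adjusted p = 0.0641) and without Ctrl replicate 1 (7.99, adjusted p = 0.343). The differentiating-like call rested on few cells: 1 cell held 264 of the 369 UMIs of TKO replicate 1, and without the richest cell of each library the adjusted p was 0.102 at a change of 8.87. Elsewhere the gene was nearly silent, with 0 to 12 UMIs a library in basal-like and 0 to 4 in hair follicle-like cells. Among the TKO cells with a Krt6b UMI at 5000 UMIs, 4 of 5 and 35 of 56 also had a Krt6a UMI. Since the 2 genes share most of their coding bases, misassigned reads in such cells were not tested.

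**Figure D2:**
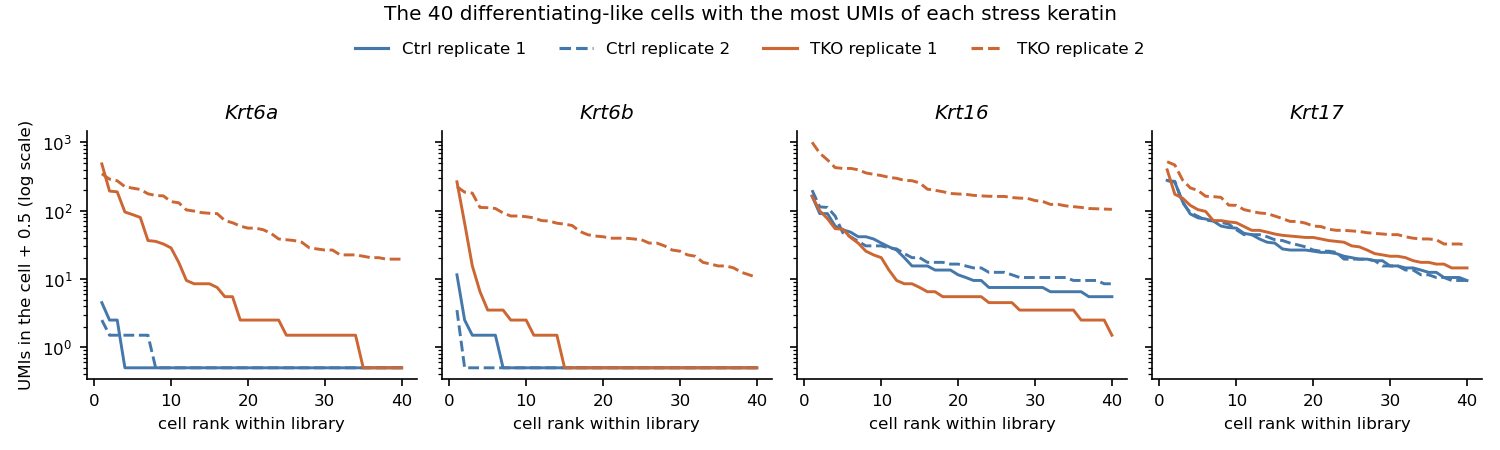
UMIs per cell plus 0.5 (y axis, log scale) of Krt6a, Krt6b, Krt16 and Krt17 in the 40 differentiating-like cells richest in each (x axis, rank within the library); blue lines are Ctrl, orange TKO, solid replicate 1 and dashed replicate 2. The richest Ctrl cells held 4 and 2 Krt6a UMIs and the richest TKO cells 483 and 346, and for Krt16 TKO replicate 2 alone lay above the other libraries.

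Krt16, the type I partner of Krt6a, was high in 1 TKO embryo and not in the other. Its differentiating-like level was 50.7 and 109 CPM in Ctrl, 84.5 in TKO replicate 1 and 1049 in TKO replicate 2, so TKO replicate 1 lay within the Ctrl range. The log2 change of 2.80 (SE 1.15) did not pass the test (adjusted p = 0.304). Without TKO replicate 2 it was −0.03, and without TKO replicate 1 it was 3.70 (adjusted p = 0.016). At 5000 UMIs, 7.65% and 14.0% of Ctrl, 10.9% of TKO replicate 1 and 52.8% of TKO replicate 2 differentiating-like cells had a Krt16 UMI (intervals 5.92 to 9.68, 11.3 to 17.2, 7.23 to 15.5 and 48.0 to 57.6), against 0 to 1.73% of immune-like cells. In TKO replicate 2, 61 of 74 cells with a Krt6a UMI also had a Krt16 UMI, and in TKO replicate 1 it was 5 of 18.

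In hair follicle-like cells Krt16 changed the other way. It fell from 12 and 14.5 CPM in Ctrl to 2.93 and 4.09 in TKO, with no overlap (log2 change −1.86, SE 0.25, adjusted p = 0.00515). Of the 15690 genes tested in this class, 5.19% were called as lower and 6.83% as higher (12% in all). Krt16 was the only one of 4 tested members called there, and it was called under all 15 alternatives at changes of −2.61 to −1.33. The share of these cells with a Krt16 UMI at 5000 UMIs was 5.12% and 7.01% in Ctrl and 0.641% and 1.17% in TKO, where 0% and 1.73% of immune-like cells had one. The TKO replicate 2 level was thus not told apart from background (3.06 CPM in its immune-like cells). In basal-like cells Krt16 stood at 5.65 and 11.7 CPM in Ctrl and 1.73 and 6.27 in TKO, which overlapped (log2 change −1.12, SE 0.61, adjusted p = 0.286). Leaving out 1 library at a time gave changes from −2.33, without TKO replicate 2, to −0.44.

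Krt17, the type I keratin of hair follicles and other appendages, was the member with the most UMIs, and it passed the test only under some alternatives. Hair follicle-like cells held 1075 and 1124 CPM in Ctrl and 1159.8 and 1305 in TKO, a log2 change of 0.21 (SE 0.11, adjusted p = 0.250). Ctrl hair follicle-like cells carried 57.9% and 57.2% of all keratinocyte Krt17 UMIs, and TKO ones 47.2% and 46.0%. Basal-like levels were 172 and 206 CPM in Ctrl and 247 and 421 in TKO (log2 change 0.83, SE 0.26, adjusted p = 0.0922), and differentiating-like levels 91.2 and 165 against 295 and 364 (1.29, SE 0.29, adjusted p = 0.117). Neither passed the test although the groups did not overlap, and each was called under 7 of its alternatives (16 and 15 in number). The cluster led by Krt1 and Krt10, the more advanced of the large differentiating-like clusters, held 8.24 and 9.03 CPM of Krt17 in Ctrl and 217 and 181 in TKO, values that were not fitted separately. The larger cluster led by Ly6d held more Krt17, 167 and 332 CPM in Ctrl and 389 and 549 in TKO, so the ratio between the groups was smaller there. Krt6a stood in the Krt1 and Krt10 cluster at 303 and 408 CPM in TKO against 0 and 0.402 in Ctrl. At 5000 UMIs, 1.63% and 3.21% of Ctrl and 26.8% and 19.3% of TKO cells of that cluster had a Krt17 UMI, against 4.69% and 3.12% of Ctrl and 2.82% and 2.77% of TKO immune-like cells, so the Ctrl shares were at background.

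**Figure D3:**
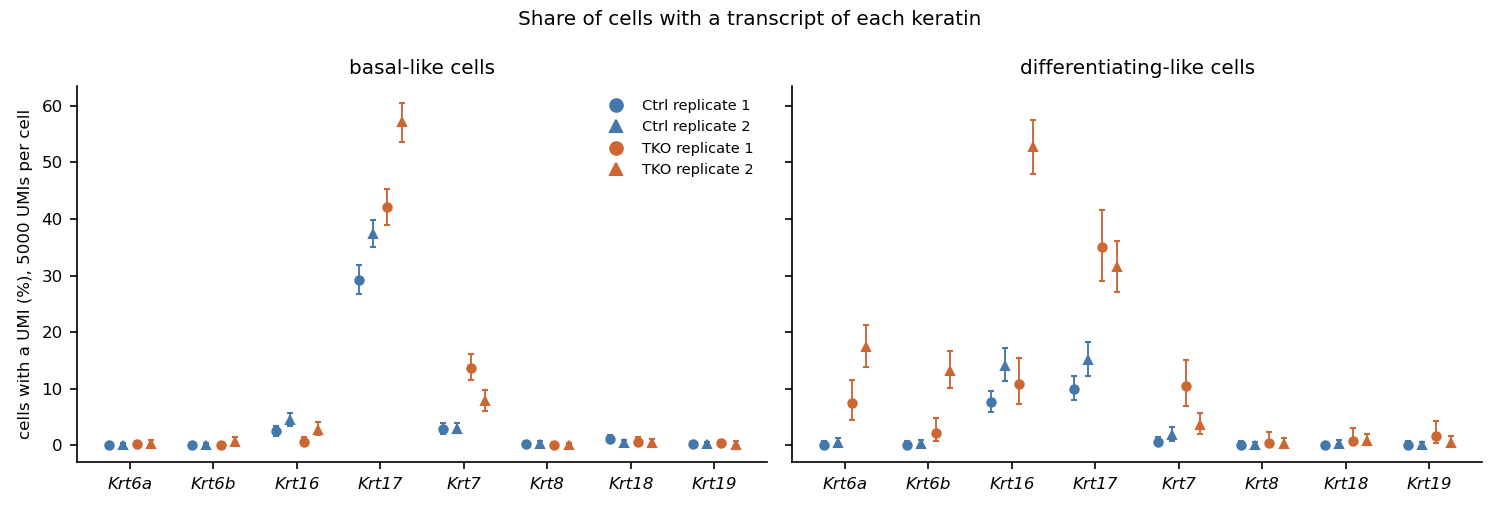
Share of basal-like (left) and differentiating-like cells (right) with at least 1 UMI of each keratin at 5000 UMIs per cell (y axis, percent), with 95% Clopper-Pearson intervals; blue is Ctrl, orange TKO, circles replicate 1 and triangles replicate 2. In differentiating-like cells the Krt6a share was 7.53% and 17.4% in TKO against 0.121% and 0.351% in Ctrl, and in basal-like cells the Krt7 share was 13.7% and 7.78% against 2.83% and 2.94%.

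The thinned shares of 6 members did not overlap between the genotypes in keratinocytes, all except Krt16 and Krt19. This was also true of 51.4% of the 19930 tested genes, so non-overlap of shares with 2 libraries a group was common. In differentiating-like cells the count was 7 of 8 members (all but Krt16) against 43.4% of genes. It was 4 of 8 against 52.1% in basal-like cells and 2 of 8 against 47.5% in hair follicle-like cells.

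Krt7, a type II keratin of ducts and other simple epithelia, was the simple-epithelium member that rose. Basal-like cells held 154 and 185 Krt7 UMIs in Ctrl against 1064 and 459 in TKO. The level went from 5.31 and 6.55 CPM to 35.4 and 18.7 CPM, a log2 change of 2.19 (SE 0.30, adjusted p = 0.0109). In this class 7.37% of 17247 genes were called as higher and 11.7% in either direction. Of 7 tested members, Krt7 was the 1 called as higher and Krt8 the 1 called as lower. Every one of 16 alternatives called it, at changes of 1.51 to 3.06. The share of basal-like cells with a Krt7 UMI at 5000 UMIs was 2.83% and 2.94% in the Ctrl libraries (95% intervals 2 to 3.88 and 2.14 to 3.93), and 13.7% and 7.78% in the TKO libraries (11.5 to 16.1 and 6.04 to 9.82), against 0 to 1.04% of immune-like cells. Its transcripts were spread over 378 and 245 TKO basal-like cells at full depth, unlike those of Krt6a. In the 2 basal-like clusters led by early-response genes such as Fos, Atf3 and Zfp36, Krt7 was at 6.32 and 5.99 CPM in Ctrl and 24.6 and 17.4 in TKO. In the remaining basal-like clusters it was at 5.04 and 6.99 CPM in Ctrl and 41.3 and 19.0 in TKO, so the groups did not overlap in either set.

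Beyond the basal-like cells, Krt7 in the unnamed cluster led by Pthlh, Penk and Krt79 stood at 21.5 and 27.4 CPM in Ctrl and 288 and 155 in TKO, values without a test. There 8.40% and 7.47% of Ctrl and 51.6% and 37.5% of TKO cells had a UMI at 5000 UMIs. Krt79 itself had 1962 and 1446 UMIs in all Ctrl keratinocytes against 49 and 361 in TKO. In the first clustering, the cluster led by Krt79, Penk and Pthlh held 151 and 179 Ctrl but 27 and 30 TKO cells. Whether the TKO cells of the unnamed cluster match its Ctrl cells was not tested. Hair follicle-like cells held 8.22 and 6.92 CPM in Ctrl and 28.4 and 7.93 in TKO, a log2 change of 1.29 (SE 0.50, adjusted p = 0.143). Leaving out 1 library at a time gave changes from 0.13 to 1.94, the latter without TKO replicate 2. Differentiating-like cells held 2.78 and 2.53 CPM in Ctrl and 52.1 and 11 in TKO (log2 change 3.43, SE 0.75, adjusted p = 0.110), called without TKO replicate 1 (2.0, adjusted p = 0.0348) and without TKO replicate 2 (4.15, adjusted p = 0.00222). A single TKO replicate 1 cell gave 248 of the 455 UMIs of its library, and without it the level was 23.8 CPM. For keratinocytes together the change was 2.16 (SE 0.36, adjusted p = 0.0311), lost with doublets kept (1.53, adjusted p = 0.0868), with unaligned components (1.51, adjusted p = 0.0803), without the expression filter (2.15, adjusted p = 0.0703) and without Ctrl replicate 1 (2.09, adjusted p = 0.353), a setting in which no gene was called.

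**Figure D4:**
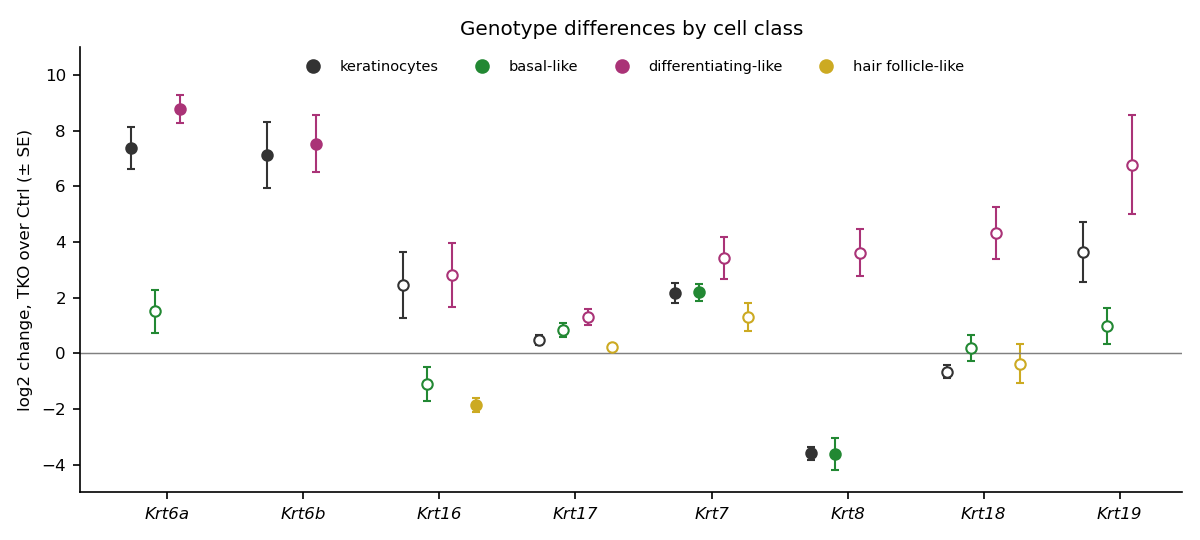
Log2 change of each keratin, TKO over Ctrl, with its standard error (y axis), in all keratinocytes and in 3 classes (colours); filled points passed an adjusted p of 0.05 and open points did not, and members with too few UMIs for a fit are left out. Krt6a reached 8.78 in differentiating-like cells, Krt7 2.19 in basal-like cells, and Krt8 stood at −3.60 in keratinocytes.

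Krt8, the type II keratin of Merkel cells, fell, and no TKO keratinocyte had UMIs of at least 3 of 8 Merkel genes at 5000 UMIs. Keratinocytes held 1107 and 754 Krt8 UMIs in Ctrl against 60 and 71 in TKO (16.2, 13.2, 1.14 and 1.31 CPM), with no overlap. The log2 change was −3.60 (SE 0.22, adjusted p = 0.00298). The Merkel-like cluster held 94% and 90.2% of the Ctrl UMIs, from 32 and 24 cells. Without that cluster the keratinocytes had 0.975 and 1.30 CPM in Ctrl against 1.13 and 0.576 in TKO, and the change was −0.44 (adjusted p = 0.552). In a sum over cells, fewer cells of a type and less RNA per cell cannot be told apart. Counting cells by Merkel genes does not separate the cases either, since those genes fell too. At 5000 UMIs, 31 and 25 Ctrl keratinocytes had UMIs of at least 3 of 8 Merkel genes, none of them a keratin of this set, against 0 of 1563 and 0 of 1784 in TKO; counts of 0 allow at most 0.192% and 0.168%. Of these Ctrl cells, 29 of 31 and 24 of 25 had a Krt8 UMI, with a median of 7 and 9 UMIs.

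The 14 and 10 TKO cells that clustered with the Merkel-like cells lacked the defining genes of that type. Atoh1 and Isl1, transcription factors of Merkel cells, were at 3.78 and 3.37 and at 5.29 and 4.03 CPM in Ctrl keratinocytes and had 0 and 0 and 0 and 1 UMIs in TKO (adjusted p = 0.00446 and 0.00326). Ccer2, the leading gene of the cluster, had 8178 and 6000 UMIs in its Ctrl cells and 0 in its TKO cells. Those TKO cells held 1 and 40 Krt8 UMIs and 16 and 42 Krt18 UMIs, against 1041 and 680 and 314 and 235 in Ctrl. With unaligned components no TKO cell joined this cluster (0 in both libraries, against 31 and 22 in Ctrl), so its TKO values rest on where the clustering placed these cells. In the TKO cells Krt17 stood at 1661 and 2753 CPM against 890.5 and 541 in Ctrl, and Krt7 at 159 and 451 CPM against 247 and 331. One TKO replicate 2 cell in this cluster held 373 Krt6a UMIs, all that the cluster had in that library.

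**Figure D5:**
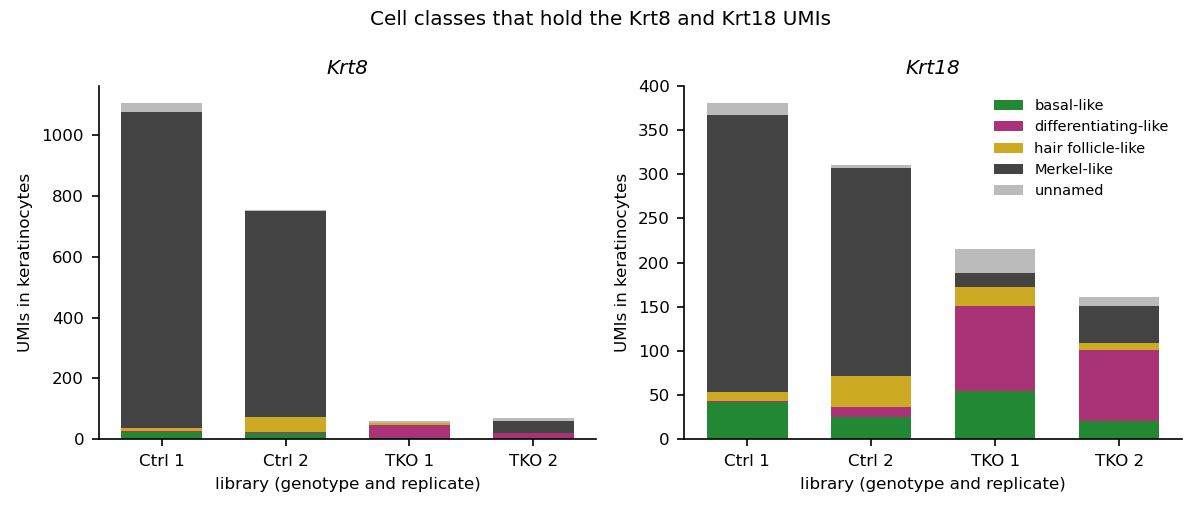
Krt8 (left) and Krt18 UMIs (right) in the keratinocytes of each library (x axis), stacked by cell class (colours, y axis in UMIs from 0). The Merkel-like cluster gave 1041 and 680 of the Krt8 UMIs in Ctrl against 1 and 40 in TKO, and differentiating-like cells gave 96 and 81 of the Krt18 UMIs in TKO against 1 and 11 in Ctrl.

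Krt8 was also called as lower in basal-like cells, on few UMIs. Its UMIs there numbered 23 and 19 in the Ctrl and 2 and 1 in the TKO libraries (log2 change −3.63, SE 0.58, adjusted p = 0.0156, with 4.30% of genes called as lower). At 5000 UMIs 0.306% and 0.267% of Ctrl basal-like cells had a UMI, against 1.56% and 1.04% (1 of 64 and 1 of 96) of Ctrl immune-like cells and 0 of 103 and 0 of 102 Ctrl fibroblast-like cells, which allows shares there of up to 2.91% and 2.94%. The intervals of the immune-like shares, 0.0396 to 8.40 and 0.0264 to 5.67, cover the basal-like ones, so at this depth the basal-like share was not told apart from that of cells that should lack Krt8. Ccer2, which belongs to the Merkel-like cluster, had 22, 15, 4 and 2 UMIs in the same basal-like cells. The call was lost without Ctrl replicate 1 (−3.52, adjusted p = 0.128), without Ctrl replicate 2 (−3.74, adjusted p = 0.0921), with doublets kept (−0.84, adjusted p = 0.168) and at Leiden resolution 0.5 (−1.43, adjusted p = 0.170), and the sign turned with unaligned components (0.76).

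Krt18, the type I partner of Krt8, came mostly from the Merkel-like cluster in Ctrl and was not called by edgeR in keratinocytes or in any class. Keratinocytes held 5.58 and 5.43 CPM in Ctrl and 4.09 and 2.97 in TKO (log2 change −0.66, SE 0.22, adjusted p = 0.138). Ctrl took 82.4% and 75.6% of its Krt18 UMIs from the Merkel-like cluster. Without that cluster the order of the groups turned, with 0.989 and 1.33 CPM in Ctrl and 3.82 and 2.21 in TKO, a change of 1.35 that did not pass the test either (adjusted p = 0.0792). Differentiating-like cells contributed 1 and 11 UMIs in Ctrl against 96 and 81 in TKO, from 10 and 7 cells, with 73 of the 81 in 1 cell (log2 change 4.33, SE 0.93, adjusted p = 0.108). Of 12 alternatives 4 called Krt18 in this class, and the changes ran from 1.46 to 7.17, the latter without Ctrl replicate 2. DESeq2 was among those that called it (4.24, adjusted p = 5.84e-05). Basal-like levels of 1.45, 0.885, 1.83 and 0.814 CPM and hair follicle-like levels of 0.747, 2.68, 1.99 and 0.641 CPM overlapped between the groups.

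Krt19, a type I keratin of simple epithelia, had few UMIs except in single cells. Keratinocytes held 27 and 30 UMIs in Ctrl against 568 and 53 in TKO (0.395, 0.523, 10.8 and 0.978 CPM). The log2 change of 3.64 (SE 1.09) did not pass the test (adjusted p = 0.112). It was 1.11 without TKO replicate 1 (adjusted p = 0.196), 4.53 without TKO replicate 2 (adjusted p = 0.00152) and 1.55 without the richest cell of each library (adjusted p = 0.216). One TKO replicate 1 cell held 469 of the 483 UMIs of its differentiating-like class. At 5000 UMIs, 0.284% and 0.305% of Ctrl and 0.960% and 0.224% of TKO keratinocytes had a Krt19 UMI, against 0 to 1.56% of immune-like cells.

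That cell was 1 of 5 cells with at least 10 UMIs of Krt4, a keratin of internal stratified epithelia and of the periderm, the outermost embryonic layer. Ctrl replicate 1 had 1 such cell, Ctrl replicate 2 had 2 and TKO replicate 1 had 2. Both genotypes thus had them, and 4 of the 5 had been placed outside the keratinocytes. Each carried 9 to 208 Krt6a, 24 to 267 Krt7, 11 to 64 Krt8, 4 to 36 Krt18 and 36 to 469 Krt19 UMIs, with 0 of Krt17, at most 1 of Krt16 and at most 1 of Krt14. Krt5 had 7, 0, 1, 36 and 1 UMIs in the 5 cells, the 36 in the TKO cell placed among differentiating-like cells. The 3 Ctrl cells alone held 208, 140 and 115 Krt6a UMIs, more than the 16 and 25 of all Ctrl keratinocytes. Taken from the differentiating-like class, the TKO cell left it with 207 Krt7, 3 Krt8, 60 Krt18 and 14 Krt19 UMIs in that library and with 1157 of 1345 Krt6a UMIs. Of the other listed periderm genes, Krt13 had 2, 302, 22, 383 and 0 UMIs in the 5 cells and Krt23 had 4, 6, 0, 2 and 0, while Gabrp and Grhl3 gave 0 or 1. The cells are described here by Krt4 and were given no type. The keratinocyte change of Krt6a, 7.36 (SE 0.76, adjusted p = 0.00942), was 3.75 with unaligned components (adjusted p = 0.0284) and 3.87 with doublets kept (adjusted p = 0.0294).

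To ask whether the genotype effect depended on the layer, the difference of the effects was tested with each library as a block. Differentiating- minus basal-like, the effect was larger by 7.13 on the log2 scale for Krt6a (SE 0.60, adjusted p = 0.0312) and by 7.35 for Krt8 (SE 0.74, adjusted p = 0.0312), where 0.157% of 17843 genes were called above 0 and 0.0841% below (0.241% in all). Krt16 differed by 3.52 (SE 0.47) and just missed the threshold (adjusted p = 0.0601), which it passed under 8 alternatives. The Krt8 difference rested on 42 UMIs of the Krt4-rich cell and on the few counts of basal-like cells, and without the richest cells it was 4.96 (adjusted p = 0.173). For Krt6a the call held without the richest cells, and was lost at 5000 UMIs per cell (6.46, adjusted p = 0.269), without Ctrl replicate 2 (6.11, adjusted p = 0.114) and with the members kept in the clustering (6.55, adjusted p = 0.0519). Its sign turned with unaligned components (−0.88). Hair follicle- minus basal-like, none of 7 tested members was called by edgeR, where 1.91% of 17484 genes were called, 0.995% above 0 and 0.915% below. An unadjusted p under 0.05 was reached by 3 of the 7 members and by 2523 of the genes. DESeq2 called 0 members and 230 genes.

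The genes most like each member were sought over the 12 sums of basal-, differentiating- and hair follicle-like cells, among 9038 genes with a mean of at least 10 CPM, by Pearson's r of log2(CPM + 1). The closest to Krt6a were Tmem109 (r = 0.947) and Sat1 (0.936), and to Krt6b Gskip (0.936) and Srpk2 (0.929). Krt16 was followed by Epn2 (0.959) and Katnbl1 (0.954), and Krt17 by Gtf2f2 (0.957) and Lxn (0.955). Carhsp1 (0.969) and Def6 (0.947) came nearest to Krt7, Nfe2l2 (0.864) and Pip4k2c (0.862) to Krt18, and Psca (0.958) and Med4 (0.892) to Krt19. Members were matched where at least 1 of the 12 sums reached 10 CPM, which Krt8 did in none. Krt18 and Krt19 did so in 1 sum each, that of differentiating-like cells of TKO replicate 1, which without its Krt4-rich cell was at 6.89 CPM for Krt18 and 1.61 CPM for Krt19, so their matches rest on 1 cell. The 12 sums come from 4 libraries and share their depth, so the values are descriptions.

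Of the other keratins of the epidermis, none was called as higher. Of 16 listed, 14 were tested in keratinocytes and only Krt15, a keratin of basal progenitors, was called, a share near the 6.96% of all tested genes. It fell from 3455 and 4652 CPM in Ctrl to 1639.6 and 1559 in TKO (log2 change −1.36, SE 0.15, adjusted p = 0.0127). The median change of the 14 was −0.69. In differentiating-like cells Krt79 fell, and in basal-like and hair follicle-like cells Krt15 and Krt10 fell, with Krt80 in the latter, where 0.330%, 4.30% and 5.19% of all genes were called as lower in these classes in turn.

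Among 18 wound-response genes of keratinocytes, 15 were tested in keratinocytes, 3 rose and none fell, with a median change of 0.60, where 4.38% of all tested genes were called as higher. All 3 encode small proline-rich proteins of the cornified envelope, the cross-linked shell of dying keratinocytes. Sprr1a was at 1.61 and 2.39 CPM in Ctrl and 11 and 19.1 in TKO (log2 change 2.91, SE 0.36, adjusted p = 0.0157). Sprr2h was counted 6 and 2 times in Ctrl against 60 and 187 in TKO (adjusted p = 0.0262), and Sprr2d 3 and 0 against 22 and 39 (adjusted p = 0.0419). The Sprr1a call was lost with doublets kept and with unaligned components. Sprr1a and Sprr2h were also called in differentiating-like cells, the class in which Krt6a rose, 2 of 12 tested against 0.852% of genes called as higher there. In other classes the list had calls as lower only, S100a9 in basal-like cells (median change −0.32) and Cd44 and Tnc in hair follicle-like cells (median change −0.28). These were 1 of 11 and 2 of 9 tested, against 4.30% and 5.19% of genes called as lower. Hbegf and Areg, growth factors released in wounds, were tested and not called in keratinocytes, and S100a8 (0, 1, 83 and 9 UMIs) was too rare for the fit.

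Early-response genes were not called in keratinocytes, where 6.96% of all tested genes were. None of 13 immediate early and AP-1 genes was called in keratinocytes by edgeR, close to that share, and their median change was −0.66. An unadjusted p under 0.05 was reached by 1 of the 13, against 4984 of 19930 tested genes. DESeq2 called 1 of the 13, against 2644 genes. Fos ranged from 236 to 1164 CPM and Jun from 363 to 1571 CPM over the libraries, with Ctrl replicate 2 highest and TKO replicate 2 lowest for both. In hair follicle-like cells Fosl2 fell, 1 of 13 against 5.19% of genes called as lower. There 8 of the 13 had an unadjusted p under 0.05, against 4424 of 15690 genes, and the median change was −1.04. In differentiating-like cells, where Krt6a and Krt6b rose, the median change of the 13 was −0.01. The 2 basal-like clusters led by early-response genes held 258 and 638 Ctrl and 312 and 131 TKO cells, so the ranges of the groups overlapped.

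Of 9 Nrf2 targets, genes of the response to oxidants, 3 rose in keratinocytes and none fell (4.38% of all tested genes were called as higher), with a median change of 0.55. Hmox1 went from 4.10 and 2.84 to 11.8 and 14.7 CPM (log2 change 1.91, SE 0.26, adjusted p = 0.0184), Txnrd1 from 63.2 and 69.9 to 110.2 and 99 CPM (0.63, SE 0.10, adjusted p = 0.0241) and Gclm from 39.1 and 45.2 to 65.9 and 58.7 CPM (0.55, SE 0.11, adjusted p = 0.0452). Hmox1 was also the leading gene of a cluster of immune-like cells, which were more numerous in TKO, and the part of RNA from those cells in its change was not tested. The Gclm call was lost under 7 alternatives and the Txnrd1 call under 5. In basal-like cells, where Krt7 rose, 5 of 8 tested targets were called as higher, against 7.37% of all genes tested there. In hair follicle-like cells 4 of 8 were called as higher, against 6.83% of genes, and Gclc was called as lower. No heat shock gene of 7 was called in keratinocytes, where 6.96% of all tested genes were. Of the 7, 3 had an unadjusted p under 0.05 and DESeq2 called 3, against 4984 and 2644 of 19930 genes. Hspa8 was at 554, 464, 795 and 708 CPM (adjusted p = 0.0671) and Hsp90aa1 at 639.7, 688, 1259.5 and 889 CPM (adjusted p = 0.0695). Hspa8, Hsph1 and Hsp90aa1 rose in basal-like cells, 3 of 7 against 7.37% of genes. Hspa8 and Hsp90aa1 rose in hair follicle-like cells, 2 of 7 against 6.83% of genes.

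Genes of the proteins that tie keratins to cell junctions were not called in keratinocytes. Of 14 linkers of desmosomes and hemidesmosomes none was called (2 at an unadjusted p under 0.05, 1 by DESeq2), with Dsp at 1306, 1012, 761 and 1289.9 CPM and Perp at 1833, 1401, 991 and 1454 CPM. For comparison, 6.96% of the 19930 genes tested in keratinocytes were called, 4984 had an unadjusted p under 0.05 and DESeq2 called 2644. Evpl fell in basal-like cells, and Pkp1, Jup, Ppl and Dsg2 fell in hair follicle-like cells, 1 and 4 of 14 against 4.30% and 5.19% of all genes called as lower there. None of 10 tested simple-epithelium genes, such as Cdh1, was called in keratinocytes or in any class (4 at an unadjusted p under 0.05 in keratinocytes, 2 by DESeq2). Among 5 periderm genes, 4 were tested and none was called (2 at an unadjusted p under 0.05, 1 by DESeq2); Krt4 itself had 0, 4, 471 and 1 UMIs in the keratinocytes and Grhl3 20.1, 19.4, 21.0 and 16.8 CPM. In contrast, 7 of 8 Merkel genes fell in keratinocytes, all but Krt20, where 2.59% of all tested genes were called as lower, with Insm1 at 167 and 115 UMIs in Ctrl against 3 and 2 in TKO (adjusted p = 0.00419) and Snap25 at 252 and 174 against 17 and 9 (adjusted p = 0.00811).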

How the data were processed

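For each library the authors deposited UMI counts as a gene by barcode matrix, made with Cell Ranger on GRCm39 (7.1.0 in the matrix header; the methods name another version); 0 columns of other samples were present. Cells with at least 2000 genes and at most 10% mitochondrial UMIs were kept, and in each library the cells with the highest doublet scores were left out (0.8% per 1000 cells). Clustering (scanpy 1.11.5, Leiden resolution 1, Harmony alignment) used 2000 variable genes and 30 components, without the 8 keratins and without genes that differed between the genotypes; classes were named from marker lists. Counts were summed per class and library and tested with edgeR 4.0.16 (R 4.3.3; quasi-likelihood test, TMM, filterByExpr, Benjamini-Hochberg adjustment over all genes tested, called under 0.05), with genotype as the only term, or with library as a block for differences between classes. DESeq2 1.42.0 was an alternative. The study tested single cells; here each library, 1 embryo, is the replicate. The procedure was tested on simulated data: 8-fold changes were recovered for 95.5% of 66 genes in differentiating-like cells (14551 genes) and 2-fold changes for 40.3% of 67, and 16 unchanged genes were called as well. In keratinocytes 2-fold changes were recovered for 31.3% of 67 genes, and 23 unchanged genes were called. Calls close to the threshold are thus uncertain. Intervals and limits (3 counts where 0 were seen) cover counting error only. The members and gene lists were chosen with earlier results of these data known. Named genes are the members, the 2 genes most like each, and from each list up to 4 called genes or the 2 most abundant; further list genes were named after their values were seen. A gene that this rule would name is not reported here. RefSeq promoters matched 3 members. Libraries were grouped by the genotype in the labels, and the replicate numbers were not used to pair them.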

Additional observations from a re-analysis of the deposited data

Results flagged for a closer look

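The effect of the genotype on Krt6a differed between layers by 7.13 on the log2 scale, differentiating- minus basal-like (SE 0.60, adjusted p = 0.0312, edgeR). It was singled out because the difference of the 2 effects was itself tested. Differentiating-like levels were 0.353 and 0.633 CPM in Ctrl and 154 and 277 in TKO, and basal-like levels 0.0689 and 0.354 against 0.400 and 0.814. Over 13 alternatives the value ran from −0.88 with unaligned components to 8.84 with doublets kept, and 9 of them called it.

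For Krt8 the same difference was 7.35 (SE 0.74, adjusted p = 0.0312). Differentiating-like cells held 5, 3, 45 and 18 Krt8 UMIs and basal-like cells 23, 19, 2 and 1 (both Ctrl libraries first). Single cells held 42 of the 45 and 16 of the 18. Only 4 of 12 alternatives called it, and it was lost without Ctrl replicate 1 (7.16, adjusted p = 0.0589) and without TKO replicate 1 (6.36, adjusted p = 0.132).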

How the results depend on the processing

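Of 572 alternative values of the members' fits, 441 kept their direction and their side of the threshold, 24 lost the call, 78 gained one and 29 changed sign. The number of genes called was 1388 in keratinocytes, 2012 in basal-like, 172 in differentiating-like and 1886 in hair follicle-like cells, and 43 and 334 for the differences differentiating- minus basal-like and hair follicle- minus basal-like. Without the filter on low counts these were 633, 3204 and 1963 in the first 3 and 1209 and 1302 for the differences. DESeq2 called 2644 in keratinocytes, 727 in differentiating-like cells and 212 for the first difference. At 5000 UMIs per cell the counts were 1118 (basal-like), 612 (hair follicle-like), 87 and 146 (differences). With doublets kept they were 311 (differentiating-like), 74 and 545. With unaligned components they were 345 (differentiating-like), 754 (hair follicle-like), 470 and 769, at Leiden resolution 0.5 1208 (hair follicle-like) and 566 (hair follicle- minus basal-like), and with the members kept in the clustering 626 for the latter. Leaving out 1 library gave 0 to 1827 genes in keratinocytes, 520 to 2825 in basal-like, 153 to 573 in differentiating-like and 1281 to 2341 in hair follicle-like cells, and 15 to 67 and 9 to 704 for the differences. The 0 came without Ctrl replicate 1, so every keratinocyte call named was lost there. The counts for basal-like cells were lowest without Ctrl replicate 1 (520) and Ctrl replicate 2 (559), and keratinocytes had 619 without Ctrl replicate 2. Differentiating-like cells had 573 without TKO replicate 2. The first difference had its 15 with TKO replicate 1 left out and its 67 with TKO replicate 2 left out. The second had 41, 9, 541 and 704 without Ctrl replicates 1 and 2 and TKO replicates 1 and 2. The causes were not tested.

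The labels give both groups replicate numbers 1 and 2, but same-numbered libraries did not deviate together (r = −0.253, −0.162, −0.286 and −0.12 over genes in the 4 fits). With the replicate block, 757 genes were called in keratinocytes, 1325 in basal-like and 33 in differentiating-like cells, and Krt6b in differentiating-like cells had a change of 7.09 (adjusted p = 0.0638). With crossed pairing, a setting chosen after seeing the data, 3684, 3214 and 1259 genes were called. No paired analysis was possible for the differences between classes because library already is the block.

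Among the named genes, the sign changed as follows. In keratinocytes, Krt16 was −0.84 without TKO replicate 2 (3.39 without TKO replicate 1), Krt18 1.35 without Merkel-like cells, Dsp 0.03 and 0.17 without Ctrl and TKO replicate 1 (down to −0.64 with others left out), and Grhl3 0.06 without TKO replicate 2 (down to −0.21) and 0.04 at 5000 UMIs. In basal-like cells, Krt8 was 0.76 with unaligned components, Krt18 −0.11 without Ctrl replicate 2, −0.48 without TKO replicate 1 (up to 0.64) and −0.07 without the early-response clusters (added after seeing the data), and Krt19 −0.18 without TKO replicate 1 (up to 1.57). Krt16 in differentiating-like cells was −0.03 without TKO replicate 2 (up to 3.70). Krt18 in hair follicle-like cells was 0.81 and 0.25 without Ctrl and TKO replicate 2 (down to −1.34), 0.14 at Leiden resolution 0.5 and 0.49 with the members kept. For differentiating- minus basal-like, unaligned components gave −0.88 (Krt6a), −2.99 (Krt7), −0.85 (Krt8), −0.73 (Krt18) and −1.12 (Krt19), and doublets kept gave −0.22 (Krt8) and −0.02 (Krt19). For hair follicle- minus basal-like, Krt6a was 0.45 and 0.03 without Ctrl and TKO replicate 1 (down to −1.29), 2.46 with doublets kept and 0.59 without the richest cells (added after seeing the data); Krt16 was 0.18 without TKO replicate 2 (down to −1.22); Krt18 was 0.95 without Ctrl replicate 2 (down to −1.55). Krt8 was −0.52 without TKO replicate 1 (up to 2.74), −2.98 with doublets kept, −4.34 with unaligned components and −0.99 at Leiden resolution 0.5. The causes of these sign changes were not tested. Depth limits Krt6a, Krt8, Krt18 and Krt19 in basal- and hair follicle-like cells, where they had few UMIs.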
